A study of Drosophila melanogaster with 12 samples.

Results

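The earliest harvest of the series was the one 3 days after double-stranded RNA (dsRNA) was added to ML-DmBG3 (BG3) cells, a line derived from the central nervous system of Drosophila. The response described here is that of the 6 arrays labelled 3 days, of 12 in the series, with the 4 knockdown arrays as 1 set against the 2 mock arrays, and the measure is the transcript level of each probe set on the Affymetrix Drosophila Genome 2.0 array as a GCRMA log2 value. The 6 arrays are 2 of mock-treated cells that received 0 µg of dsRNA, 2 of cells with Rad21 RNAi and 2 of cells with Nipped-B RNAi, each knockdown with 40 µg of dsRNA. The other 6 arrays, used only where named, are 1 of each treatment at day 4 and 1 at day 6, with 10 µg in the knockdowns. The cells of every group were passaged in the same Schneider's medium with serum and insulin and were moved to a serum-reduced medium while the dsRNA was added, the mock cells too.

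Rad21, called verthandi (vtd) in current annotation, is the kleisin subunit that closes the cohesin ring, and Nipped-B is the protein that loads the ring onto chromosomes. The ring holds sister chromatids together until anaphase and also binds along transcribed genes in cells between divisions. In flies, changes in the dose of these proteins change the expression of homeobox and Notch target genes. Each dsRNA pool was an equal mix of a pair of dsRNAs, and the gene-specific parts of the primers that made the Rad21 templates are printed here, 5′ to 3′, because they define which transcript was targeted. The primers of the other target are not printed. The vtd gene lies on chromosome arm 3L (RefSeq gene table, Release 6 plus ISO1 MT), and all bases shown belong to the gene-specific part.
Rad21 dsRNA 1, forward: ctggttggcagcacattggg
Rad21 dsRNA 1, reverse: gcatatcagcatgggcgtcc
Rad21 dsRNA 2, forward: tgggtgacgattttaatcaaggag
Rad21 dsRNA 2, reverse: cgcctgttttctggaatttcctg

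The arrays did not check the knockdowns, while the study reports reduced Rad21 and Nipped-B protein in BG3 cells by western blot. The Nipped-B probe set was at background and no probe set was named vtd here. No array carried a control dsRNA, so the presence of dsRNA and the loss of its target cannot be told apart in any comparison with mock. The labels call the 2 arrays of a group biological replicates and say no more about them, so each p value measures the spread between these arrays. Values below log2 4 were taken as background, and the tests were limited to the 7282 of 18769 probe sets with log2 4 or more on at least 2 of the 6 arrays. These named 5884 genes. The number of probe sets past that level ranged from 7228 to 7261 per array, and the medians of those tested from 9.39 to 9.44. Only 35 tested probe sets were below log2 4 on both mock arrays, and 7 were below it on all 4 knockdown arrays. Just inside that limit was mbl, whose second-highest value was 4.01, and just outside it elB, at 4.00 after rounding. With 2 arrays a group, the number of arrays limits the precision. In these bulk samples, fewer cells of a type and less RNA per cell cannot be told apart.

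The markers of the cell's origin were sparse. Of 18 neuronal markers with a probe set, some of them genes of single transmitter types such as ChAT and VGlut, 15 were under log2 4 on all 6 arrays. Another 2 were at or above it on all 6, among them elav, an RNA-binding protein of neurons. Of 22 glial markers 10 were at or above log2 4 on all 6 arrays, as were 6 of 21 neuroblast markers, 11 of 18 haemocyte markers, 5 of 18 tracheal and epithelial markers, 7 of 15 germline markers and 0 of 14 muscle markers.

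Within 3 days transcripts had moved in both directions, and most moved little. Of the 7282 probe sets 46.6% passed, of which 1776 (24.4%) were higher and 1618 (22.2%) were lower on the 4 knockdown arrays than on the 2 mock arrays at an adjusted p of at most 0.1 (limma, Benjamini-Hochberg over all probe sets tested). The median change was 1.25-fold upward and 1.29-fold downward, and 1458 of those raised and 1207 of those lowered moved by less than 1.5-fold. The values had been quantile-normalized, which makes the balance of higher and lower calls relative, and with the arrays centred on their medians 1908 were higher and 1557 lower. Only 106 rose (1.46%) and 123 fell (1.69%) by 2-fold or more, and 16 and 8 did so by 4-fold or more. All 4 knockdown arrays lay above both mock arrays for 2083 probe sets (28.6%) and below both for 1836 (25.2%). Of those called, 1691 lay above, 1537 below and 166 overlapped. An exact permutation test of 4 arrays against 2 cannot go below 0.0667, so every call rests on the fit across all probe sets.

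The transcripts raised by 2-fold or more came from lower levels than those lowered. Their median level on the mock arrays was 6.64, against 8.73 for those lowered 2-fold or more and 9.43 for every probe set tested (log2 levels, with no test). The same mock arrays gave both this level and the difference that picked the sets. That choice by itself favours this order, and how much of it was not tested.

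Among probe sets that named a single gene, the largest increase was that of en (engrailed), a homeodomain repressor of segment polarity. Its values were 4.34 and 4.64 on the mock arrays, 8.22 and 8.34 after Rad21 RNAi and 7.31 and 7.84 after Nipped-B RNAi. The 4 knockdown arrays were well above both mock arrays, and the increase was 10.8-fold (log2 3.44 ± 0.17 SE, adjusted p = 0.000314). The paralogue inv (invected), its neighbour on the chromosome, rose by log2 2.41 ± 0.12, from 4.98 and 5.12 on the mock arrays to 7.82 and 7.91 with Rad21 RNAi and 6.88 and 7.23 with Nipped-B RNAi. Both probe sets are of a type that can match transcripts of more than 1 gene.

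The second largest was wit (wishful thinking), a type II receptor for BMP ligands that acts at the neuromuscular synapse. The mock arrays read 4.61 and 4.79, the Rad21 arrays 8.17 and 8.10 and the Nipped-B arrays 7.24 and 7.28. That is 8.0-fold (log2 3.00 ± 0.091, adjusted p = 7.79e-05), with no overlap between any of the 3 groups. Later, the mock arrays of wit read 2.48 and 2.64 at days 4 and 6, below the background limit, and the Rad21 arrays 4.45 and 3.66. No other tested receptor of the pathway moved as far. Of the type I receptors tkv rose by 0.30 and sax differed by 0.12 (adjusted p = 0.104), and the type II receptor put differed by 0.16 (adjusted p = 0.12). The inhibitory Smad Dad rose by 0.41 and the Smad Mad by 0.29. In the Dpp list 6 of 14 tested genes rose and 1 fell, with a median difference of 0.16. Over all 5884 genes 24.6% rose, 23.2% fell and the median difference was 0.017, and these are the figures to set beside each list.

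Prip, a water channel of the aquaporin family, rose from 4.27 and 4.19 on the mock arrays to 7.64 and 7.41 with Rad21 RNAi and 6.94 and 6.75 with Nipped-B RNAi. Jhbp1, named as a juvenile hormone binding protein, rose by log2 2.76 ± 0.12, the P450 Cyp310a1 by 2.26 ± 0.09, the methuselah-like receptor mthl2 by 2.16 ± 0.29 and rt (rotated abdomen), a protein O-mannosyltransferase, by 1.81 ± 0.12. The 15 largest increases also held CG32181, CG31337, CG4408, hng3, CG9628 and CG17760, which rose by 1.81 to 2.76 on the log2 scale. CG17760 was below log2 4 on both mock arrays and was at least 4.54-fold higher on the knockdown arrays with values under 4 set to 4.

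The largest decrease was that of LpR1, a lipophorin receptor of the LDL receptor family. It read 9.08 and 9.30 on the mock arrays, 5.15 and 5.29 after Rad21 RNAi and 6.58 and 6.10 after Nipped-B RNAi. The 4 knockdown arrays lay below both mock arrays by several log2 units, a 10.6-fold decrease (log2 -3.41 ± 0.15, adjusted p = 0.000241). Of the other lipid genes on the list, LpR2 differed by -0.39 (adjusted p = 0.109), while Lsd-1, the perilipin of lipid droplets, and Apoltp, the apolipoprotein of the lipid transfer particle, rose by 1.35 and 1.11. In all, 8 of 21 lipid genes rose and 1 fell, and the number raised lay between 5 and 9 under the alternatives.

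Next among the decreases came Ugt317A1, a UDP-glycosyltransferase, at 8.07 and 7.50 on the mock arrays and between 4.37 and 5.81 on the 4 knockdown arrays. CG46339 fell by 6.77-fold and CG6040 by 6.39-fold. Among enzymes, the flavin monooxygenase Fmo-2 changed by log2 -1.70 ± 0.13, D2hgdh, which oxidises D-2-hydroxyglutarate, by -1.61 ± 0.16, and Dbct, the transacylase of the branched-chain keto acid dehydrogenase, by -1.58 ± 0.18. CG7841, nemy, olf413, CG13252 and gas fell too, with log2 differences of -1.96 to -1.58. Of the 15 largest decreases CG32512 had the mock arrays farthest apart, at 8.75 and 6.63, and it no longer passed without mock replicate 1, Rad21 replicate 2 or Nipped-B replicate 2.

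**Figure D1:**
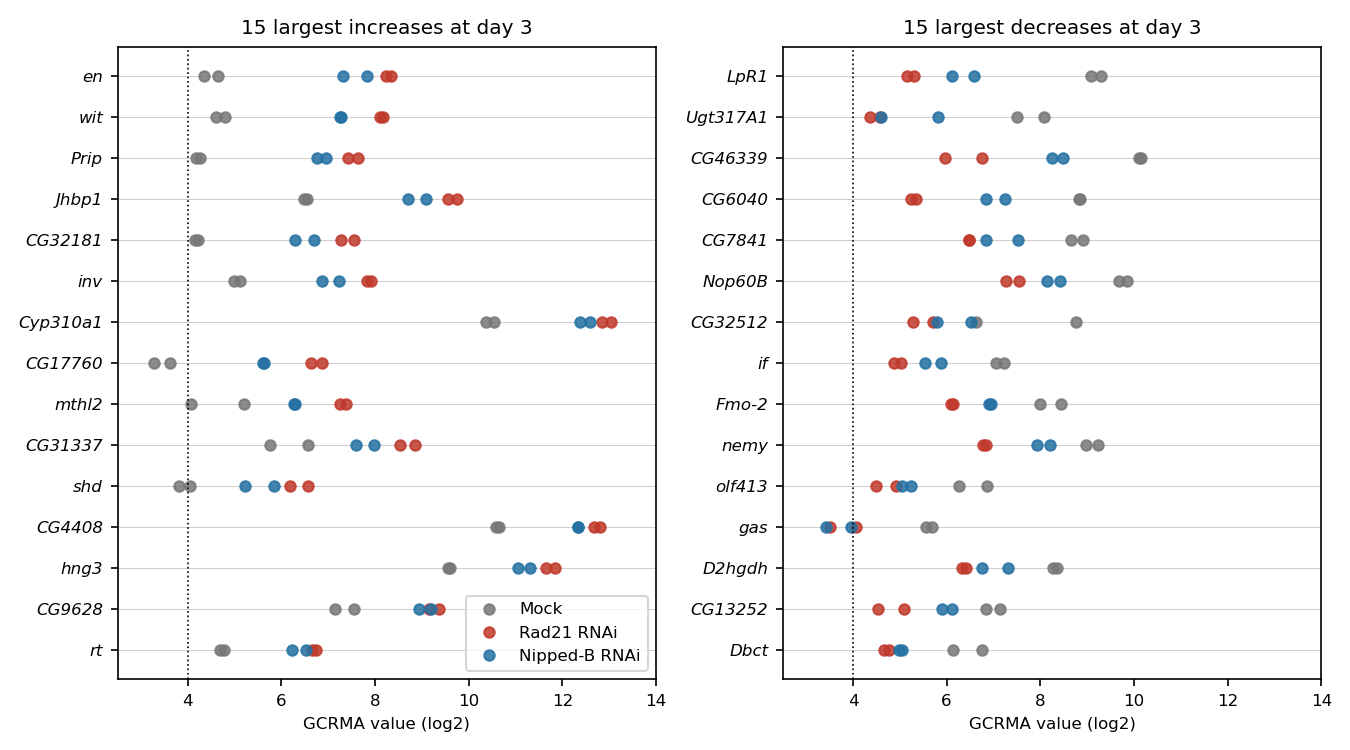
GCRMA log2 values on the 6 day 3 arrays for the 15 probe sets with the largest increase and the 15 with the largest decrease, 1 point per array, with the background limit of log2 4 dotted. Grey points are mock, red Rad21 RNAi and blue Nipped-B RNAi; the Rad21 arrays of en (8.22 and 8.34) and LpR1 (5.15 and 5.29) lie farther from mock than the Nipped-B arrays.

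The group lowered most as a whole was ribosome biogenesis, the nucleolar factors that transcribe, modify and cleave ribosomal RNA. Of 35 tested members 32 fell and 0 rose, against 23.2% and 24.6% of all genes, and the median difference was -0.88. Nop60B, the pseudouridine synthase of H/ACA particles, read 9.68 and 9.85 on the mock arrays, 7.55 and 7.28 after Rad21 RNAi and 8.43 and 8.14 after Nipped-B RNAi. A second probe set of Nop60B, brighter on each array, differed from mock by log2 -1.54, and the first by -1.91. Fib (fibrillarin), the methyltransferase of C/D particles, read 11.32 and 11.19, 9.66 and 9.62 and 10.44 and 9.87 in the same order, 2.56-fold lower (adjusted p = 0.00172). For both genes each knockdown array was below each mock array. The RNA polymerase I subunits Polr1A, Polr1B, Polr1C, Polr1E and Polr1F differed by -1.08, -1.08, -0.88, -1.02 and -1.03, and the polymerase I initiation factor Tif-IA by -0.69. The members that did not pass were bel (-0.13), Rrp1 (-0.025) and Nop17l (0.17). Separately, 32 members fell with Rad21 RNAi (median -1.07) and 32 with Nipped-B RNAi (median -0.73), both measured against the same 2 mock arrays. Over all genes 25.4% rose and 24.3% fell with Rad21 RNAi, and 14.8% and 15.5% with Nipped-B RNAi. At days 4 and 6 the median was -0.73.

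The translation machinery of the mitochondrion and the charging of tRNAs were lower as well. Of 71 mitochondrial ribosomal protein genes 63 fell and 0 rose, with a median of -0.32 and no change as large as 2-fold. The largest was that of mRpL28 (-0.63). Of 32 aminoacyl-tRNA synthetases 24 fell and 0 rose (median -0.42). The cytosolic synthetases led: ValRS read 11.29 and 11.01 on the mock arrays and 10.08 to 10.58 on the 4 knockdown arrays, and IleRS and LeuRS differed by -0.87 and -0.78. The 8 that did not pass were all mitochondrial forms, at -0.28 to -0.039, and 6 other mitochondrial forms fell. Cytosolic ribosomal protein transcripts, at mean levels of 13.4 to 15.7, differed from mock by little. Of these, 14 of 29 fell, the median was -0.08, and the count lay between 4 and 23 under the alternatives, with 9 of 16 alternatives moving it by more than 1.5-fold. For 20 of 29 all knockdown arrays lay below both mock arrays and for 0 above, against 25.2% and 28.6% of all probe sets. RpL3 differed by -0.22 on its brightest probe set and by -0.98 and -1.26 on dimmer ones.

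Chaperone genes moved in both directions. The 8 subunits of the cytosolic chaperonin, CCT1 to CCT8, all fell, with differences from -0.23 for CCT4 to -0.58 for CCT3, as did the mitochondrial chaperones Hsp60A (-0.90) and Hsc70-5 (-0.71). Hsp110 (-0.26) and Droj2 (-0.13) fell too. The heat shock genes Hsp68 (0.50) and Hsp27 (0.40) rose, as did Hsc70-3 of the endoplasmic reticulum (0.15). Among those that did not pass were Hsp26 (0.17, adjusted p = 0.186) and DnaJ-1 (-0.18, adjusted p = 0.142). In all, 12 of 20 fell and 3 rose. Of the genes of amino acid metabolism and the ATF4 response 11 of 19 fell and 4 rose. The amino acid transporters path (-1.03) and mnd (-0.79) and the enzyme Cth (-0.86) led the decreases, and aay, a phosphoserine phosphatase, was 0.67 higher. The transcript of crc, the fly ATF4 itself, differed from mock by -0.16.

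Genes of DNA replication leaned downward by little. Of 28 tested 12 fell and 0 rose (median -0.14), led by the licensing factor dup (-0.37) and the GINS subunit Sld5 (-0.33), and the count lay between 3 and 16 under the alternatives. Of 30 cell division genes 6 rose, by at most 0.27 for Rca1, with CycB at 0.24, and 1 fell, feo at -0.22. Under the alternatives the number raised lay between 1 and 9. Of 14 genes of cohesin and of sister chromatid cohesion 1 rose and 2 fell (median 0.033). SA1, which encodes the stromalin subunit that binds Rad21, rose by 0.29 and did not pass without mock replicate 1. The acetyltransferase gene san fell (-0.27). SMC1 (0.059, adjusted p = 0.462) and SMC3 (0.065, adjusted p = 0.509), the arms of the ring, did not pass. The kleisin of the meiotic synaptonemal complex, c(2)M, fell, from 5.97 and 5.84 on the mock arrays to 4.56 and 4.16 with Rad21 RNAi and 5.35 and 4.53 with Nipped-B RNAi.

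Among detoxification enzymes the transferases were lower more often than higher. Of 28 tested UDP-glycosyl and glutathione transferases 16 fell and 5 rose (median -0.26), and the number lowered lay between 8 and 19 under the alternatives. The glutathione transferases GstE9 (-1.52), GstD4 (-1.27) and GstD1 (-0.82) fell while GstT4 (0.99) and GstE1 (0.89) rose. GstE9 no longer passed without mock replicate 1. Of 14 tested P450 genes 3 rose and 5 fell (median -0.033), and the number lowered lay between 1 and 6 under the alternatives.

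**Figure D2:**
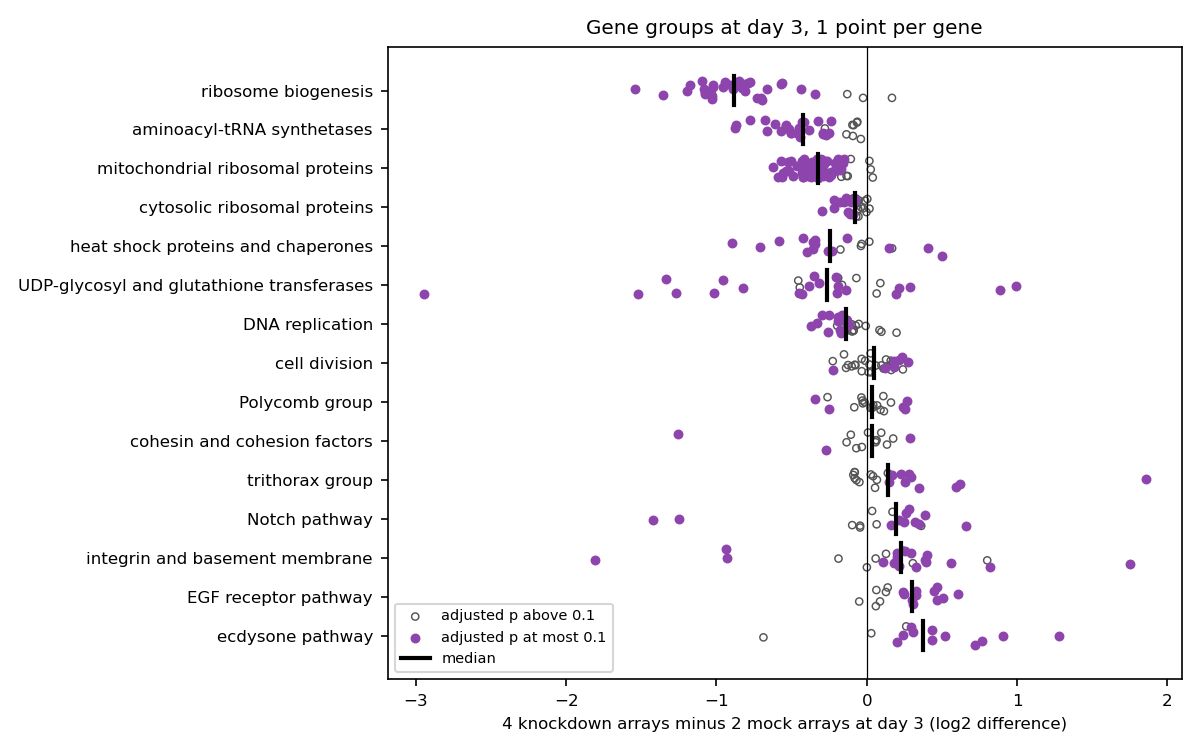
Log2 difference between the 4 knockdown arrays and the 2 mock arrays at day 3 for each tested gene of 15 gene groups, filled where the adjusted p was at most 0.1, with the group's median as a bar. Ribosome biogenesis lies farthest left (median -0.88), and the ecdysone list farthest right (median 0.37).

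In the Notch pathway the ligand Delta fell at day 3. Notch is a receptor that is cleaved when it binds Delta on a neighbouring cell, and Fringe (fng) is the glycosyltransferase that tunes which ligand it binds. Delta read 6.30 and 5.89 on the mock arrays, 4.73 and 4.33 after Rad21 RNAi and 4.83 and 4.81 after Nipped-B RNAi. Both knockdowns lay below both mock arrays (log2 -1.42 ± 0.17, adjusted p = 0.00227), and a second, dimmer Delta probe set differed by -1.49. The fng transcript, at 8.88 and 8.96, 7.48 and 7.34 and 7.85 and 8.03 in the same order, was 2.37-fold lower (adjusted p = 0.000578). Delta and fng were the only 2 of 18 tested pathway genes that fell, and 9 rose.

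Those that rose did so by less. The inhibitor numb was highest, at 9.29 and 9.44 on the mock arrays, 10.15 and 10.13 with Rad21 RNAi and 9.87 and 9.94 with Nipped-B RNAi (1.58-fold, adjusted p = 0.0012). The γ-secretase subunits Psn and pen-2 rose by 0.28 and 0.39, the coactivator mam by 0.32, the corepressor gro by 0.35 and the ubiquitin ligases neur and Su(dx), which act on ligand and receptor, by 0.26 and 0.21. The median of the list was 0.19, and the number raised lay between 5 and 11 under the alternatives. No probe set was named as the receptor N, the ligand Ser or Su(H) here.

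In mock cells Delta and fng were lower later. The mock arrays of days 4 and 6 read 4.62 and 4.75 for Delta and 7.96 and 6.08 for fng. Delta read 4.76 and 5.86 on the later Rad21 arrays and 4.6 and 5.41 on the later Nipped-B arrays, and fng 8.30 and 7.58 and 8.16 and 7.90. The mean of the 4 later knockdown arrays differed from mock by 0.47 for Delta and 0.97 for fng, and the change of the effect between day 3 and later did not pass (adjusted p = 0.137 and 0.185).

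The Enhancer of split complex, which includes the basic helix-loop-helix repressors that Notch activates, held the largest differences between the knockdowns. Of 10 genes of the complex with a probe set 4 were tested. E(spl)mdelta-HLH was below log2 4 on both mock arrays (3.39 and 3.80), read 7.47 and 7.22 after Rad21 RNAi and stayed at 4.04 and 3.84 after Nipped-B RNAi. It was thus at least 10.2-fold higher with Rad21 RNAi. It entered the tests only through those arrays, so that difference is given without a p value. Nipped-B RNAi did not pass against mock (log2 0.34, adjusted p = 0.258). E(spl)m7-HLH moved both ways, from 6.24 and 6.01 on the mock arrays up to 8.03 and 8.01 with Rad21 RNAi and down to 4.62 and 5.15 with Nipped-B RNAi. The 3 groups did not overlap, and both changes passed (adjusted p = 0.00116 and 0.0105). E(spl)m3-HLH was at 8.20 and 8.11 on the mock arrays, little different at 8.41 and 8.33 with Rad21 RNAi (adjusted p = 0.106) and at 6.14 and 6.06 with Nipped-B RNAi (log2 -2.06 ± 0.088, adjusted p = 0.000409). E(spl)mbeta-HLH read 4.45 and 4.43 on the mock arrays, 5.53 and 5.66 with Rad21 RNAi and 4.10 and 4.24 with Nipped-B RNAi. Against the mean of both knockdowns E(spl)m7-HLH did not pass (adjusted p = 0.17), and E(spl)mbeta-HLH passed only with mock replicate 1 in the fit.

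**Figure D3:**
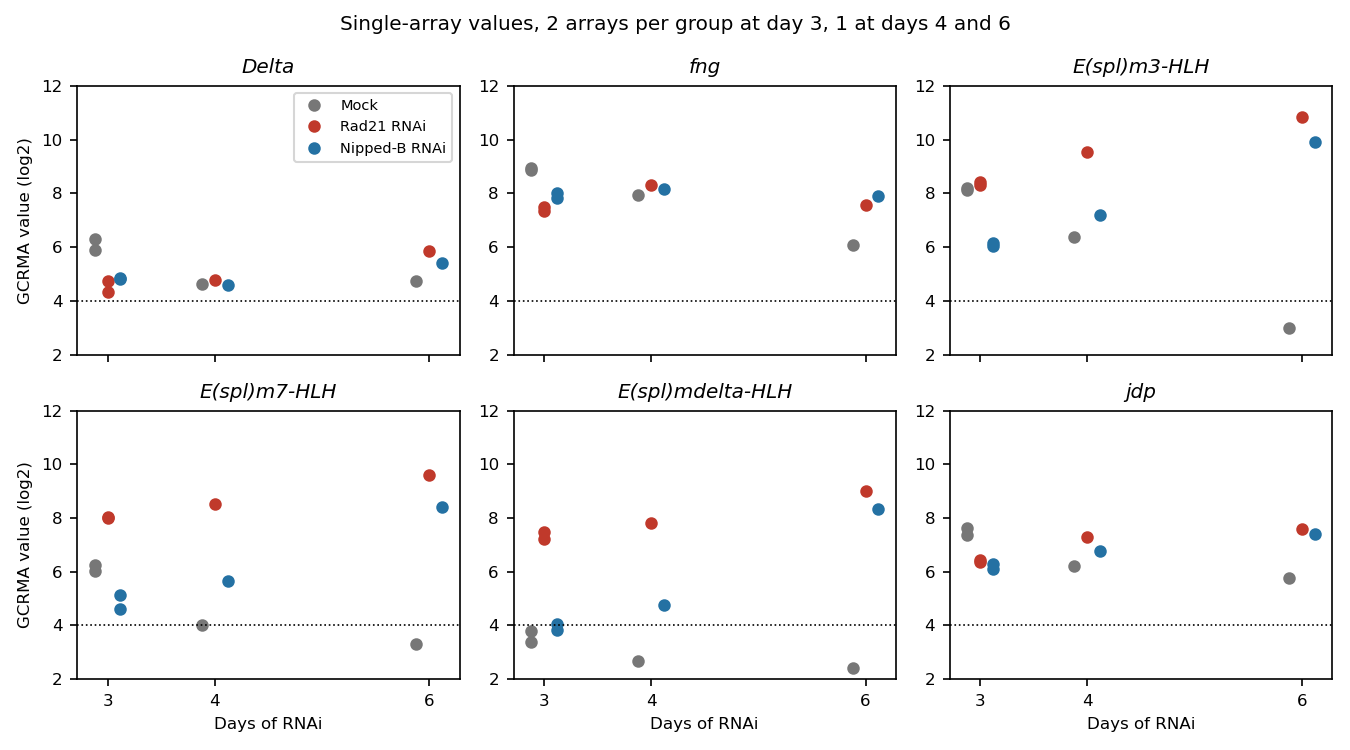
GCRMA log2 values of 6 genes on single arrays against days of RNAi, with mock grey, Rad21 RNAi red and Nipped-B RNAi blue, and the background limit of log2 4 dotted. At day 3 Delta, fng and jdp are highest on the mock arrays, and the E(spl) genes separate Rad21 from Nipped-B RNAi, with E(spl)m7-HLH at 8.03 and 8.01 after Rad21 RNAi and 4.62 and 5.15 after Nipped-B RNAi.

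Tested directly, Rad21 and Nipped-B RNAi differed in 168 probe sets of 7282 (2.31%), with 117 higher (1.61%) and 51 lower (0.7%) after Rad21 RNAi. With the replicate number as a block 744 passed, 375 higher and 369 lower, so the lean to higher values was not seen in that fit. Over genes the shares were 1.63% and 0.697%. Of 10 genes of the Enhancer of split complex with a probe set, the 4 tested were all among the 117. E(spl)mdelta-HLH entered the tests only through its Rad21 arrays, where it is high, so this count is not a test of the complex. Rad21 minus Nipped-B was at least log2 3.33 in E(spl)mdelta-HLH with values under 4 set to 4, since 1 Nipped-B array was under 4. In E(spl)m7-HLH it was 3.14 ± 0.19, in E(spl)m3-HLH 2.27 ± 0.088 and in E(spl)mbeta-HLH 1.42 ± 0.14. CG6044 (1.58) and the lysozyme gene LysX (1.44) were also higher after Rad21 RNAi. In the other direction Rad21 RNAi gave lower values of CG46339 (-2.0), CG6040 (-1.75), the secreted metalloprotease AdamTS-A (-1.55), the glucuronyltransferase GlcAT-P (-1.31) and nemy (-1.25). For GlcAT-P the Nipped-B arrays, at 7.75 and 7.62, lay within the mock arrays at 7.42 and 7.89, and the Rad21 arrays were at 6.46 and 6.29.

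Among the probe sets with the largest mean change over both knockdowns, the Rad21 arrays were mostly farther from mock than the Nipped-B arrays. Of the 106 probe sets raised by 2-fold or more the Rad21 mean was above the Nipped-B mean for 102, and the test between the knockdowns called 40 of them in that direction and 0 in the other. Of the 123 lowered by 2-fold or more the Rad21 mean was the lower one for 115, with 21 called in that direction and 1 in the other. The median of Rad21 minus Nipped-B was 0.63 in the first set and -0.39 in the second. Over all probe sets tested it was 5.03e-05, and 1.61% were called higher and 0.7% lower after Rad21 RNAi. Against the shared mock arrays, 3514 probe sets passed with Rad21 RNAi (48.3%, with 25.1% higher and 23.2% lower) and 2122 with Nipped-B RNAi (29.1%, with 14.5% higher and 14.7% lower). Without Nipped-B replicate 2 the Nipped-B count was 940, without mock replicate 1 it was 1367, and without Rad21 replicate 1 or 2 the Rad21 count was 2284 or 2113. The number of calls between the knockdowns fell whichever of the 6 arrays was left out. It fell without a mock array too, though mock does not enter this difference. Each such fit leaves 1 array in a group and fewer arrays to estimate the spread, so the falls do not single out an array. In those fits the lone array of a treatment was assumed to vary like the others. E(spl)m3-HLH kept its call in each of the 6 omissions.

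**Figure D4:**
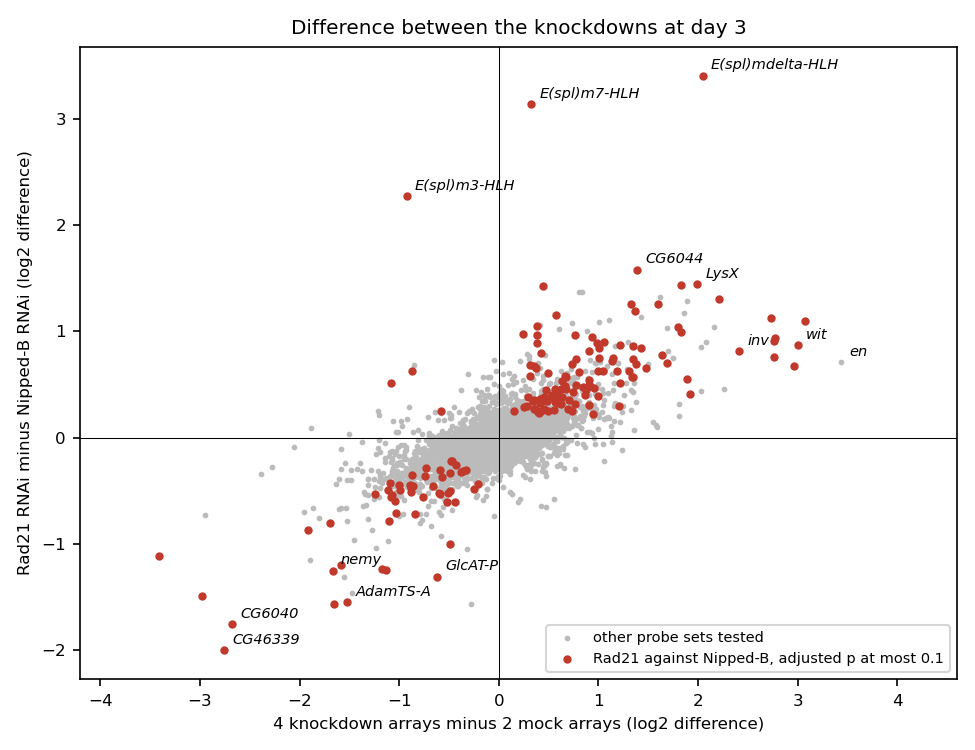
Rad21 minus Nipped-B RNAi (log2 difference, vertical) against the mean difference of both knockdowns from mock (log2, horizontal) at day 3, 1 point per probe set tested, red where Rad21 and Nipped-B RNAi differed at an adjusted p of at most 0.1. The genes E(spl)mdelta-HLH, E(spl)m7-HLH and E(spl)m3-HLH stand above the cloud at 3.40, 3.14 and 2.27 as measured, the first with Nipped-B arrays near background.

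Genes of the ecdysone pathway rose. Ecdysone is taken up by an importer, turned into its active form by the P450 Shade (shd) and sensed by the receptor pair EcR and Usp, which switch on br (broad) and other early genes. Of 14 tested genes of the list 11 rose and 0 fell (median 0.37). The brighter shd probe set read 7.49 and 7.90 on the mock arrays, 9.24 and 9.22 after Rad21 RNAi and 8.62 and 8.81 after Nipped-B RNAi, 2.43-fold higher, and the dimmer one, at 3.81 and 4.04 on the mock arrays, by log2 2.03. The importer Oatp74D rose by 0.90, br by 0.76, the bZIP gene vri by 0.72, the sterol transporter Npc1a by 0.52, Eip93F by 0.43 and the coactivator tai by 0.43. The receptors moved less, usp by 0.29 and EcR by 0.24. The br value is that of its brightest probe set by mean level, and 3 of its 5 tested probe sets did not pass. ImpL2, a secreted protein that binds insulin-like peptides, was the 1 member well below mock, at -0.69, and it did not pass (adjusted p = 0.185).

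Several steps of the EGF receptor pathway rose as well. Of 17 tested members 11 rose and 0 fell (median 0.30). Among them were the ligand spi (0.47), its chaperone S (0.24), the adaptor drk (0.33) and the exchange factor Sos (0.33). The phosphatase csw (0.51), the MAP kinase kinase Dsor1 (0.45) and the antagonists sty (0.60), kek1 (0.47) and Cbl (0.30) rose too. A second, dimmer sty probe set differed by 0.39 and did not pass (adjusted p = 0.22). No member reached 2-fold, kek1 no longer passed without mock replicate 2, Rad21 replicate 1 or either Nipped-B array, and the number raised lay between 5 and 11 under the alternatives.

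The genes of integrin α subunits moved in opposite directions. Integrins, the receptors for the extracellular matrix, pair one α subunit with the β subunit mys. The αPS1 gene mew rose from 6.03 and 5.87 on the mock arrays to 8.22 and 7.93 with Rad21 RNAi and 7.14 and 7.51 with Nipped-B RNAi (3.36-fold, adjusted p = 0.00074). The αPS2 gene if (inflated) fell, from 7.22 and 7.04 to 5.03 and 4.87 and 5.88 and 5.54 in the same order (3.50-fold, adjusted p = 0.000676), and the αPS3 gene scb by 1.91-fold. For mew and if no knockdown array overlapped the mock arrays. The β subunit mys rose by 0.39. Among matrix genes the collagen IV chains Col4a1 and vkg rose by 0.40 and 0.39, dystroglycan (Dg) by 0.82 and papilin (Ppn) changed by -0.93. Perlecan (trol) rose by 0.56 on its brightest probe set and did not pass without mock replicate 2, while 3 of its 4 other probe sets passed. Over the list 14 of 24 rose and 3 fell (median 0.23).

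Adhesion and guidance receptors also split. The E-cadherin gene shg (-1.21), the Toll family receptor 18w (-1.19) and caps (-0.60) fell, while Fas1 (0.77), Nrx-IV (0.59), Ten-a (0.51) and the N-cadherin gene CadN (0.48) rose, 8 of 17 tested rising and 4 falling. Of the guidance genes comm2 (-1.37) and comm (-0.98), which hold down Robo at the cell surface, and the netrin receptor unc-5 (-1.28) fell, and the Ryk receptor drl (-0.77) fell and no longer passed without either mock array or without Nipped-B replicate 1. The receptor phosphatases Lar (0.52) and Ptp69D (0.50), Ephrin (0.46) and the Slit receptor robo1 (0.38) rose. In all, 9 of 22 guidance genes rose and 4 fell. The number raised lay between 3 and 10 for guidance and between 3 and 8 for adhesion under the alternatives.

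Genes of immunity and of RNA interference were examined because dsRNA was present on the knockdown arrays and absent from mock. Dcr-2, which cuts dsRNA into siRNAs, read 10.20 and 10.09 on the mock arrays, 10.78 and 10.59 with Rad21 RNAi and 10.60 and 10.49 with Nipped-B RNAi (1.39-fold, adjusted p = 0.00549), and its partner loqs rose by 0.38. The Piwi family gene aub fell by 2.37-fold. Of 14 tested genes of the RNAi machinery 3 rose and 5 fell (median -0.068). Of 19 immune genes 8 rose and 0 fell (median 0.17). The peptide gene AttD read 4.30 and 3.34 on the mock arrays, 5.95 and 6.76 with Rad21 RNAi and 4.87 and 5.25 with Nipped-B RNAi. The peptide gene Mtk rose by 2.08-fold and Sting, an innate immune sensor, by 1.62-fold. The part of the dsRNA itself in these values was not tested.

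Chromatin regulators moved little. Of 19 Polycomb group genes 3 rose, Pc by 0.27, Asx by 0.25 and jing by 0.24, and 2 fell, esc (-0.34) and Caf1-55 (-0.25). Psc did not pass (0.11, adjusted p = 0.227). Of 22 trithorax group genes 11 rose and 0 fell (median 0.14), among them the Mediator subunits skd (0.62) and kto (0.28), tna (0.59), and brm (0.26) and osa (0.34) of the Brahma complex. The number raised lay between 3 and 12 under the alternatives. The member with the largest change, sls, encodes the giant muscle protein Sallimus and was below log2 4 on both mock arrays, so it was at least 2.58-fold higher. It entered the tests only through the knockdown arrays, where it is high, so its call lends nothing to the count of 11. No gene of the bithorax and Antennapedia complexes passed the limit for testing, of 8 with a probe set.

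Tested markers of cell types moved in both directions. The summed level of the haemocyte markers (log2 of summed linear values) was 15.74 to 15.77 on the mock arrays and 15.91 to 16.03 on the knockdown arrays, and 6 of 11 tested markers rose, the engulfment receptor NimC4 by 0.72 and the growth factor receptor Pvr by 0.64, while eater fell (-0.71). The summed glial markers, of which moody and nrv2 were brightest, were 14.06 to 14.19 on the mock and 14.24 to 14.43 on the knockdown arrays. Of 11 tested 3 rose and 3 fell. The marker repo was at 4.63 and 5.23 on the mock and 4.26 to 4.48 on the knockdown arrays, and Gli at 7.89 and 7.81 and at 6.46 to 7.05. The glial surface protein wrapper was at 4.29 and 5.07 on the mock arrays and between 2.56 and 2.69 on the 4 knockdown arrays, at least 1.60-fold lower with values under 4 set to 4, and vari rose by 1.15. The summed neuroblast markers were 13.42 to 13.48 on the mock and 13.70 to 13.72 on the knockdown arrays. The brightest of them, Syp, was at 12.93 and 12.92 on the mock and 13.18 to 13.32 on the knockdown arrays. Of 21 with a probe set 15 were under log2 4 on all 6 arrays, dpn, ase and wor among them, and of 6 tested 2 rose and 1 fell. For the tracheal and epithelial markers the sums were 12.66 to 12.75 on the mock and 12.80 to 13.00 on the knockdown arrays. Those of the muscle markers were 6.39 to 6.42 and 6.56 to 7.15, with 13 of 14 under log2 4 on all 6 arrays and only sls tested. The sums were 11.29 to 11.58 and 11.09 to 11.37 for the germline markers and 10.59 to 10.66 and 10.18 to 10.52 for the neuronal markers. Their part in the changes of the other lists was not tested.

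A few of the raised genes were neighbours. Of 4638 pairs of successive tested genes within 10 kb, 82 held a gene raised by 2-fold or more. Of 79 genes raised by 2-fold or more, with the gene order of the RefSeq table of Release 6, 4 such pairs were raised together: CG5888 with Idgf2, Idgf2 with Idgf3, shd with CG9628, and CG32182 with CG32181. The pair inv and en, both raised, lies farther apart than 10 kb in that table and is not counted. Of 99 genes lowered by 2-fold or more 0 pairs were found. The pairs that held a lowered gene were not counted, so raised and lowered genes are not compared here. On chromosome 4, 19 of 37 tested genes rose (51.4%) and 3 fell (8.11%), with a median difference of 0.25, while on the other arms 21.5% to 27.3% of tested genes rose.

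The last comparison asked whether the knockdowns acted the same way later. The later arrays are 1 at day 4 and 1 at day 6 for each treatment and had 10 µg of dsRNA instead of 40 µg, so time and dose cannot be told apart. Across the 7282 probe sets the difference from mock at day 3 and that at days 4 and 6, measured on different arrays, had a Pearson correlation of 0.749 as a description over probe sets, which are not independent. Of the 106 probe sets raised by 2-fold or more 98 were also higher later, where 4216 of all 7282 tested were, and 67 were so by 2-fold or more, where 205 of all tested were (2.82%). Of the 123 lowered 116 were lower later, where 3066 of all tested were, and 67 were so by 2-fold or more, where 197 of all tested were (2.71%).

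The effect of the knockdowns differed between day 3 and later in 61 probe sets (0.838%, limma), 38 higher at day 3 (0.522%) and 23 lower (0.316%). With the replicate number as a block the directions were 286 higher and 302 lower. Jhbp1 read 6.48 and 6.54 on the day 3 mock arrays and 8.71 to 9.75 on the 4 knockdown arrays, and 4.95 and 3.88 on the later mock arrays with 9.39 to 10.67 on the later knockdown arrays. Its mock level was thus lower later, and the day 3 difference minus the later one was log2 -2.80 (adjusted p = 0.0405). The Jun dimerization gene jdp changed direction, from 7.62 and 7.38 on the mock arrays and 6.09 to 6.44 on the knockdown arrays at day 3 to 6.19 and 5.76 and 6.75 to 7.60 later. The day 3 knockdown arrays were below mock and the later ones above it, and the change in effect was log2 -2.49 (adjusted p = 0.0372). Dad was 0.41 above mock at day 3 and 2.02 later, and CG42342 0.38 and 3.48 on a single probe set of several. The probe sets of CG42342 differed from mock by 0.38 to 0.88 at day 3. The effect on inv, 2.41 at day 3 and 3.84 later, differed too (adjusted p = 0.0417), as did that on en, 3.44 and 4.94 (adjusted p = 0.0998). Septin4 and the pyrroline-5-carboxylate reductase gene P5cr-2 did not pass at day 3 (adjusted p = 0.447 and 0.109) and were -1.57 and -1.92 from mock later.

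The count of 61 moved with the arrays in the fit, and each omission left 1 array in a group. Leaving out replicate 1 of Rad21 or of Nipped-B at day 3 left 0 in limma (672 and 722 at an unadjusted p under 0.05), and without the mock array of day 4 there were 941, 277 higher and 664 lower. Without the other arrays the counts were 1 and 6 for mock replicates 1 and 2 of day 3, 1 for Rad21 replicate 2, 8 for Nipped-B replicate 2, 3 for mock day 6, 12 and 17 for Rad21 days 4 and 6, 345 for Nipped-B day 4 and 70 for Nipped-B day 6.

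**Figure D5:**
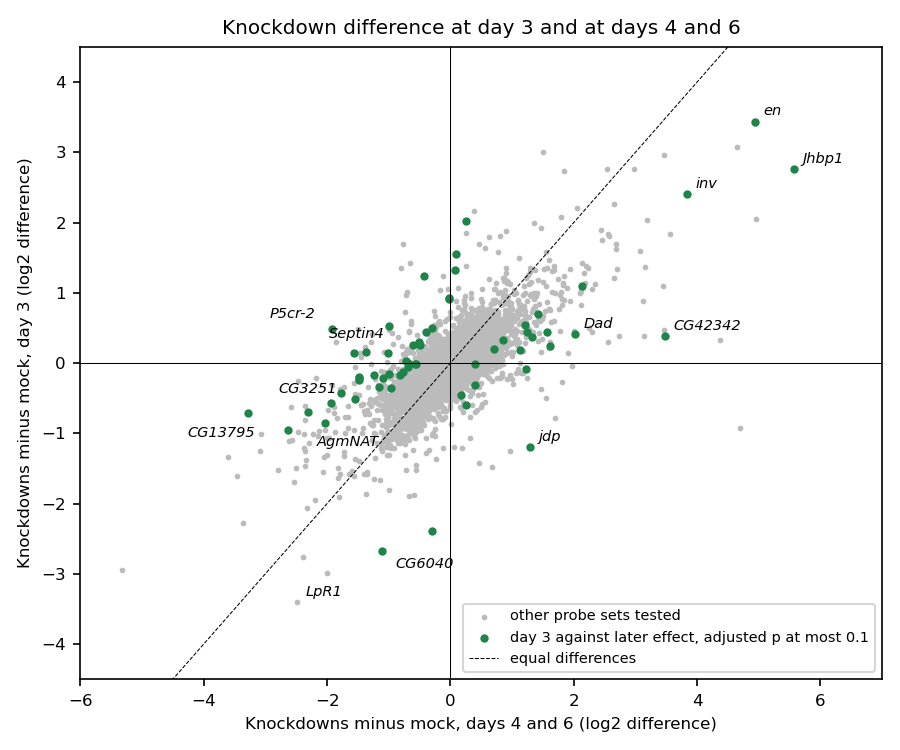
Log2 difference between knockdown and mock arrays at day 3 (vertical) against that at days 4 and 6 (horizontal), 1 point per probe set tested, green where the 2 differed at an adjusted p of at most 0.1, with the line of equal differences dashed. The gene jdp lies below 0 at day 3 (-1.20) and above 0 later (1.29), while en lies high on both axes (3.44 and 4.94).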

How the data were processed

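RNA of BG3 cells was hybridised to Affymetrix Drosophila Genome 2.0 arrays, and the authors deposited 1 table of log2 values for all 12 arrays, made with GCRMA, which adjusts background by probe GC content and quantile-normalizes the arrays. The GCRMA version and genome build were not given in the sources used here. Levels under log2 4 were taken as background, a limit chosen here, and 183 control probe sets were left out. Of 18769 others 13647 named 1 gene, 402 several and 4720 none in the platform annotation given here, and of the first 13544 matched the RefSeq gene table.

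From the deposited log2 values, 3 treatment means (mock, Rad21, Nipped-B) were fitted to the 6 day 3 arrays with limma 3.58.1 in R 4.3.3 with a mean-variance trend, and p values were adjusted by Benjamini-Hochberg over all probe sets tested. A probe set was called at an adjusted p of at most 0.1, the study's threshold. The difference between day 3 and days 4 and 6 was tested over 12 arrays with 6 means. The script was tested on simulated data. Tables and plots were made in Python 3.11.15 with pandas 2.3.3, numpy 2.4.6 and matplotlib 3.10.9.

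Named genes were the 15 largest called changes each way among probe sets of 1 gene whose 4 knockdown arrays lay on the same side of both mock arrays, ranked with values under log2 4 set to 4, the 5 largest each way in each of the other 2 tests between treatments or times, genes the study names for these arrays, and up to 4 called members each way of each gene list. Further list members are given by their values. A gene with several probe sets is represented in a list by the one with the highest mean. The members and lists were chosen with earlier results of these data known, and some gene aliases were completed after values could be seen. Alternatives were no filter, a limit of log2 5, values under 4 set to 4, no trend, a plain linear model, median centring, a threshold of 0.05, the replicate number as a block, all 12 arrays in a single fit, 2 groups in place of 3 and each array left out in turn.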

Additional observations from a re-analysis of the deposited data

Results flagged for a closer look

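The 168 probe sets that differed between Rad21 and Nipped-B RNAi at day 3, and the 61 in which the knockdown effect at day 3 differed from that at days 4 and 6, stand out because the difference itself was tested and passed. Between the knockdowns, Rad21 minus Nipped-B was 3.40 on the log2 scale in E(spl)mdelta-HLH as measured (3.33 or more with values under 4 set to 4). That gene entered the tests only through its Rad21 arrays. The difference was 3.14 in E(spl)m7-HLH, 2.27 in E(spl)m3-HLH, 1.58 for CG6044 and 1.44 for LysX. It was -2.0 for CG46339, -1.75 for CG6040, -1.55 for AdamTS-A, -1.31 for GlcAT-P and -1.25 for nemy. LysX read 3.27 and 3.07 on the mock arrays, 5.89 and 5.86 after Rad21 RNAi and 4.44 and 4.42 after Nipped-B RNAi. For AdamTS-A the values were 7.22 and 7.39, 5.14 and 4.87 and 6.59 and 6.51 in the same order.

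Between day 3 and later, the day 3 effect minus the later one was -3.09 for CG42342, on a single probe set of several. This difference was -2.80 for Jhbp1, -2.49 for jdp, -1.62 for Dad and -1.57 for CG6040. It was 2.41 for P5cr-2, 1.71 for Septin4, 1.68 for CG13795, 1.62 for CG3251 and 1.17 for AgmNAT. CG13795 read 10.07 and 9.84 on the mock arrays of day 3 and 9.98 and 9.97 on those of days 4 and 6. Each treatment held 2 arrays at day 3 and 1 each at days 4 and 6, too few for a search for single outlying arrays.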

How the results depend on the processing

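The direction of each named gene's difference was kept under every alternative run. For the knockdowns against mock, 3034 re-tests of named genes stayed on their side of the threshold, 304 fell short of it and 1 newly passed. Between the knockdowns the shares were 100 unchanged and 50 short of it, and for day 3 against later 115 and 83.

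With all 12 arrays in a single fit, 2152 probe sets passed for both knockdowns against mock, 2262 for Rad21, 886 for Nipped-B and 3 between the knockdowns. A plain linear model called 1166 for Nipped-B, 3 between the knockdowns and 1 for day 3 against later. Without the trend 68 passed between the knockdowns. At an adjusted p of 0.05 there were 32 between the knockdowns and 24 for day 3 against later. The cause of these moves was not tested, apart from the stricter threshold.

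The labels number the replicates of each treatment alike without saying that a number marks anything shared. The difference of replicate 1 and 2 correlated across probe sets at 0.507 between mock and Rad21, 0.511 between mock and Nipped-B and 0.368 between Rad21 and Nipped-B. With the replicate number as a block, 744 probe sets differed between the knockdowns and 588 between day 3 and later, and 4094, 4167 and 3053 passed for both knockdowns, Rad21 and Nipped-B against mock.

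With each array left out in turn the counts ran from 2539 to 3279 for both knockdowns, 2113 to 3482 for Rad21, 940 to 1922 for Nipped-B, 1 to 85 between the knockdowns and 0 to 941 for day 3 against later (limma, with 1147 and 909 at an unadjusted p under 0.05 for the last 2 on all arrays). Signal near the background limits what can be read of genes such as E(spl)mdelta-HLH, whose fold is a lower bound.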

Other observations

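Regulators of translation in neurons held 1 member raised by 2-fold or more. The CPEB protein gene orb2, which regulates translation of synaptic mRNAs, read 5.25 and 5.43 on the mock arrays, 7.48 and 7.12 after Rad21 RNAi and 5.86 and 6.35 after Nipped-B RNAi. The knockdown arrays did not overlap the mock arrays. The repressor pum rose by 0.43 and the RNA-binding proteins Imp, Syp and elav by 0.35, 0.30 and 0.49, so that 5 of 8 tested rose and 0 fell, and the number raised lay between 0 and 6 under the alternatives. The fold of orb2 was 2.57 (adjusted p = 0.00277).

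The juvenile hormone esterase gene Jhe rose by 1.10 and the transporter gene JhI-21 fell (-0.77), with 3 of 7 tested rising and 1 falling. In the hedgehog list, 4 of 10 rose, the co-receptor boi by 0.45 and the hedgehog exporter disp by 0.38, and 0 fell. The JAK-STAT factor Stat92E rose by 0.19, with 4 of 8 raised. In the wingless list the feedback inhibitor nkd fell (-0.63) and wls, which carries Wnt ligands to the surface, rose by 0.30.

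The TNF ligand gene egr read 12.29 and 12.46 on the mock arrays, 11.28 and 11.24 after Rad21 RNAi and 11.41 and 11.42 after Nipped-B RNAi, below mock on all 4 knockdown arrays. Its receptor gene wgn rose by 0.20 and the initiator caspase gene Dronc by 0.36, and 5 of 20 genes of apoptosis and DNA damage rose while 6 fell, and the number lowered lay between 1 and 6 under the alternatives, 10 of 16 of which moved it by more than 1.5-fold. Enzymes of glycolysis stayed near the mock level, with 2 of 12 raised, 0 lowered and a median of -0.052. Of 17 growth control genes Mnt, the antagonist of Myc, fell (-0.55) and REPTOR-BP, Akt, REPTOR and mTor rose by 0.53, 0.34, 0.33 and 0.15. The germline gene cuff fell (-1.32), while osk rose by 0.38 on its brighter probe set. The dimmer osk probe set did not pass (0.14, adjusted p = 0.445).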
